A study of Mus musculus with 203 samples.

Results

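Neuropeptide precursor genes were examined in single neurons of the mouse nucleus ambiguus (Amb), the brainstem column that holds vagal motor neurons. The set held 42 genes, chosen as precursors of known neuropeptides other than *Calca* and *Calcb*, and all 42 were listed among the 24029 genes of the count table. The neurons came from wild-type C57BL/6NCrl mice at postnatal day 2 to 4. Cholera toxin B, a retrograde tracer, had been injected 1 day or more earlier into the pericardial space or into the cricothyroid muscle of the larynx, and each labelled cell body was aspirated from a brainstem slice and sequenced by Smart-seq2. The 3 deposited types were 53 ambiguus cardiopulmonary (ACP) neurons and 98 ambiguus cardiovascular (ACV) neurons, all labelled from the heart, and 52 laryngeal neurons, all labelled from the cricothyroid muscle. Tracer uptake and no genetic line chose the neurons.

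Each sample was 1 neuron, and the labels tied no neuron to a mouse. A type therefore counted as 1 sample: differences between types are given as values with the spread over neurons, with no p-value. The types had been clustered by the authors on these same counts, so the levels of a gene between types are a description. Intervals are exact 95% binomial intervals for shares of neurons; they cover counting error only, since reads were counted without molecular identifiers. Levels are reads of a gene per 1000000 reads (CPM), with totals taken without *Rn45s*, a ribosomal RNA precursor whose share of counts differed between types (median 34.3% in ACP, 35.8% in ACV and 58.6% in laryngeal neurons). Folds are log2 ratios of mean CPM plus 1, and a gene was called past 2-fold where either type had a read in at least 10% of its neurons.

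The total count per neuron ran from 542162 to 3292763. Without *Rn45s*, the median was 1115375 in ACP, 1120512 in ACV and 560892 in laryngeal neurons, so a low-level gene was less easily seen in the laryngeal neurons. No 2 neurons had the same counts. Markers of cholinergic motor neurons were present: *Slc18a3*, the vesicular acetylcholine transporter, had a read in 100% of neurons of each type, and *Chat*, which makes acetylcholine, in 100% of ACP, 100% of ACV and 88.5% of laryngeal neurons. *Apoe*, an astrocyte gene, exceeded 1800 counts in 11 ACP, 28 ACV and 0 laryngeal neurons, although the methods describe removing neurons above that limit; all deposited neurons were kept here. The 10 markers of other neurons (glutamatergic, inhibitory and monoaminergic) summed to a median of 72.8 CPM in ACP, 63.9 in ACV and 265 in laryngeal neurons.

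Neuropeptides are cut from larger precursor proteins by convertases, packed into dense-core vesicles and released beside fast transmitters. They act on receptors on nearby or distant cells and change excitability over seconds to minutes. Motor neurons of the vagus release acetylcholine as their fast transmitter, and some carry peptides as well.

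The pair of urotensin precursors had opposite patterns between types. *Uts2* encodes urotensin 2 and *Uts2b* urotensin 2B, peptides that share a cysteine-bounded ring and a receptor. *Uts2* lies on chromosome 4 from 150997097 to 151001810 (GRCm38, plus strand) and *Uts2b* on chromosome 16 from 27353322 to 27370239 (minus strand). The coding bases of that ring, in capitals, with 9 coding bases before and the last 3 coding bases after, are shown because the genes were highest in different types (GENCODE vM21 transcripts, 5′ to 3′; coding positions of the capitals are 349 to 366 of 369 in *Uts2* and 319 to 336 of 339 in *Uts2b*, in the last exon of each):
Uts2 (chr4:151001657-151001674, plus strand): gccccagagTGCTTCTGGAAATACTGCatt
Uts2b (chr16:27353718-27353735, minus strand): aaacgagctTGTTTTTGGAAGTACTGTgtc
The coordinates are those of the capitals. Of the 18 ring bases, 14 were identical.

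The 250 bases before the start of 4 genes that differed between types are shown because they share or lack a short promoter motif (RefSeq starts, GRCm38.p6, 5′ to 3′ on the strand of the gene). Capitals mark TGACGTCA, the cAMP response element, in *Cartpt* and *Ucn*, and TATAAA with its reverse complement in *Uts2* and *Uts2b*:
Cartpt (chr13:99900684-99900933, minus strand): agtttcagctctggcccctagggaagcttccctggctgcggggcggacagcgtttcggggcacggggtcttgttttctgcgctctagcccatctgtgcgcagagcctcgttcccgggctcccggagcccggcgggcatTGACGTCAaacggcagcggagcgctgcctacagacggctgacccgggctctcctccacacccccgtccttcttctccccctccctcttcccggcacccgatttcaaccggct
Ucn (chr5:31138896-31139145, minus strand): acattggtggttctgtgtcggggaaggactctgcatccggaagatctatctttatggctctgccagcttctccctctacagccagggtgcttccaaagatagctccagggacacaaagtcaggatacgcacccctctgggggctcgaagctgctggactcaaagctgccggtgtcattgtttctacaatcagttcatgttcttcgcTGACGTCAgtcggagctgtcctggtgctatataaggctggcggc
Uts2 (chr4:150996847-150997096, plus strand): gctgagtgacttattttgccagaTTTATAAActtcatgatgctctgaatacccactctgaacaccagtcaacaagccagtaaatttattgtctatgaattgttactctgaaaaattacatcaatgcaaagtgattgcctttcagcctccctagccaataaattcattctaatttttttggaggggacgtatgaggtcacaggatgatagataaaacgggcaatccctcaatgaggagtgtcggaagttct
Uts2b (chr16:27370240-27370489, minus strand): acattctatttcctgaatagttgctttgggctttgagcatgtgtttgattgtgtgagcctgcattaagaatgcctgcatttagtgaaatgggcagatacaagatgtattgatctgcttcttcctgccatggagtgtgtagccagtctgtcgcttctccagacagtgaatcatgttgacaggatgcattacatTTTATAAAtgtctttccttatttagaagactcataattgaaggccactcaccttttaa
Searched on both strands of these 250 bases, TGACGTCA was found in 3 of the 35 precursor genes with a promoter in the table (*Cartpt*, *Sst* and *Ucn*) and in 1.55% of all 32851 promoters. TGACG, which lies within TGACGTCA, was found in 12 of the 35 (34.3%) and in 17.8% of all promoters. TATAAA was found in 14 of the 35 (40%) and in 12.4% of all. A precursor gene was counted if any promoter of it matched, while the background counts single promoters, so the shares have unlike units. A match is a description of letters and shows no use of a site.

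Of the 42 genes, 2 had no read in any neuron, *Npvf* and *Ucn3*; 17 were rare; and 23 are described below. In the ACP and ACV comparison, 13.9% of all genes were past 2-fold in either direction, and 10 of the 21 precursors compared were, 5 higher in ACP neurons and 5 higher in ACV neurons. In the ACP and laryngeal comparison the background was 18.2%; 15 of 24 precursors were past 2-fold, 3 higher in ACP and 12 higher in laryngeal neurons. In the ACV and laryngeal comparison it was 19.6%; 12 of 23 were past 2-fold, 3 higher in ACV and 9 higher in laryngeal neurons. The median log2 fold of the precursors compared was 0.01, −1.01 and −0.77 in these comparisons, against 0.00, −0.03 and −0.02 for all genes. Each pair of comparisons shares 1 type, so their counts are not independent. With *Rn45s* kept in the totals, the median of all genes moved to 0.52 and 0.45 in the comparisons with laryngeal neurons; the share of genes past 2-fold that were higher in the cardiac type moved from 44.5% to 86.6% (ACP) and from 40.1% to 80.4% (ACV), and among precursors from 20% to 36.4% (ACP) and from 25% to 30.8% (ACV). With DESeq2 size factors, 13 precursors were past 2-fold between ACP and ACV neurons, 5 higher in ACP and 8 higher in ACV neurons. Of all 13356 genes compared, 982 and 914 were. The precursor split went the other way in neurons with less *Apoe*. With at most 1800 counts, 8 precursors were higher in ACP and 4 in ACV neurons, 66.7% in ACP. For all 13264 genes compared there it was 1374 and 792, 63.4% in ACP. With at most 900, it was 9 and 4 (69.2% in ACP) for precursors and 1598 and 1272 (55.7%) for 13116 genes. Between ACV and laryngeal neurons with at most 900, 1 precursor was higher in ACV and 14 in laryngeal neurons, against 1260 and 2136 of 13171 genes.

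**Figure D1:**
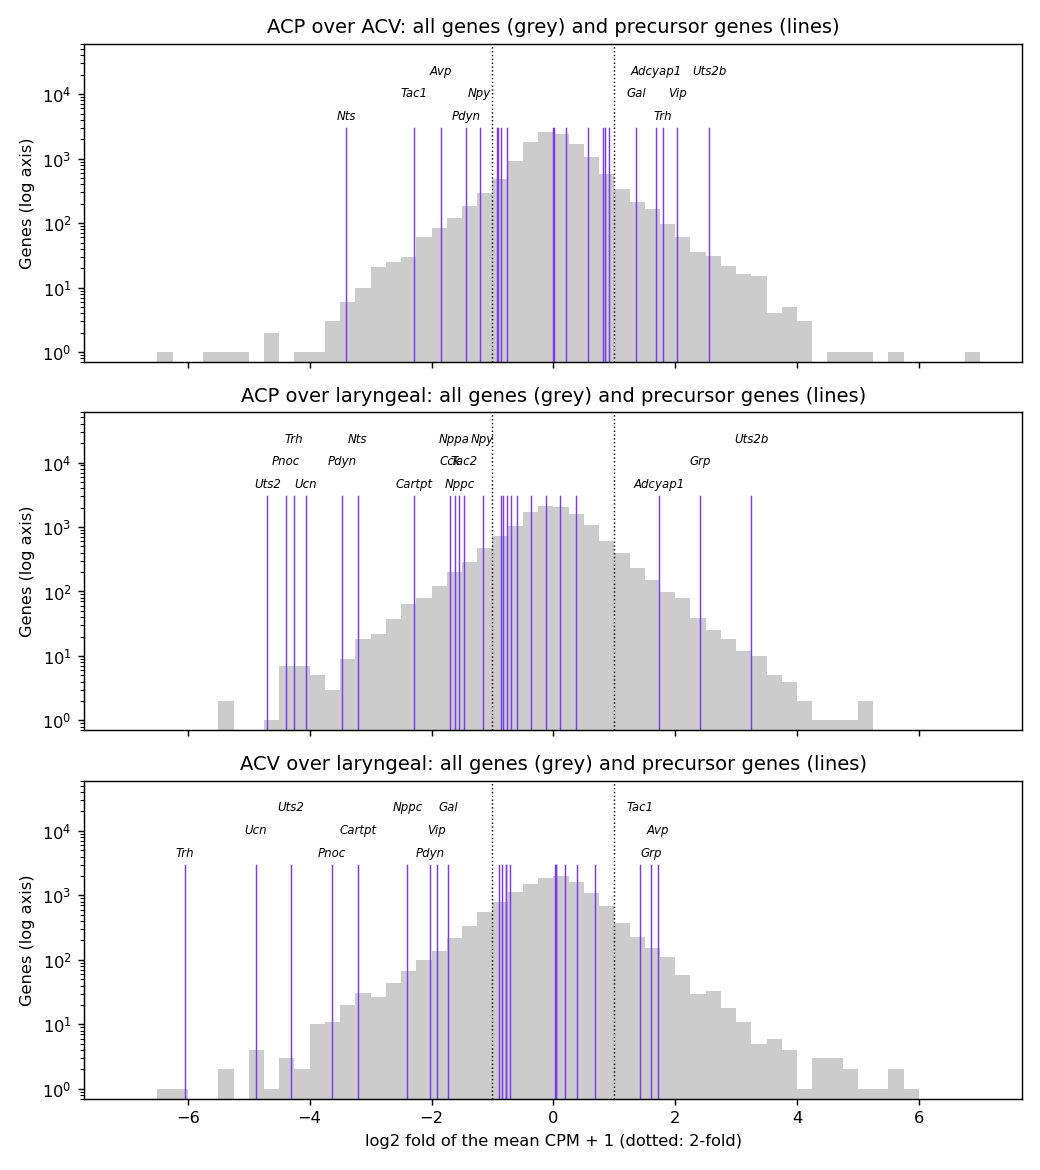
Log2 folds of the mean CPM plus 1 (horizontal axis) for all genes compared (grey histogram, number of genes on a log axis) and for the precursor genes (lines, named where past 2-fold), for ACP over ACV, ACP over laryngeal and ACV over laryngeal neurons. Most precursor lines of the laryngeal comparisons lie to the left, where laryngeal neurons were higher, with *Trh* at −6.05 the farthest in ACV over laryngeal neurons.

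Among the opioid-family precursors, *Pnoc* and *Pdyn* were highest in laryngeal neurons. *Pnoc*, on chromosome 14 from 65400673 to 65425472, encodes nociceptin, the ligand of the receptor *Oprl1*. It had a read in 47 of 52 laryngeal neurons (90.4%, interval 79 to 96.8), 37 of 98 ACV neurons (37.8%, 28.2 to 48.1) and 14 of 53 ACP neurons (26.4%, 15.3 to 40.3). The laryngeal neurons ran from 0 to 1185 CPM with a median of 244, and their first quartile, 62.9, was above the third quartile of the ACV neurons, 11.7. In the ACP neurons the median was 0 and the highest 237, and in the ACV neurons the median was 0 and the highest 591. The mean *Pnoc* level was 302 CPM over laryngeal neurons (SD 296), 23.4 over ACV neurons (SD 74.3) and 13.4 over ACP neurons (SD 45.7), a log2 fold of −4.39 for ACP and −3.63 for ACV over laryngeal neurons.

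*Pdyn*, on chromosome 2 from 129686565 to 129699844, encodes prodynorphin, the source of dynorphins. It was found in most neurons of every type, in 84.6% of laryngeal, 72.4% of ACV and 62.3% of ACP neurons. The level rather than the share set the types apart: the median *Pdyn* level was 211 CPM in laryngeal, 50.1 in ACV and 14.1 in ACP neurons, and the highest neuron of each was 6304, 1164 and 400.5. The ranges overlapped throughout. Mean levels were 652 CPM (SD 1211), 159.2 (SD 262) and 58.2 (SD 91.8), and the log2 fold was −1.44 for ACP over ACV, −3.46 for ACP over laryngeal and −2.03 for ACV over laryngeal neurons. With neurons of at most 1800 *Apoe* counts, the ACP over ACV fold was −0.99, just under 2-fold. *Penk*, the enkephalin precursor, was within 2-fold in each comparison over all neurons, but not in subsets of them: its mean was 38.2 CPM in ACP, 38.1 in ACV and 65.9 in laryngeal neurons, and 48.6% of the ACV sum came from 1 neuron at 1813 CPM. The ACV over laryngeal log2 fold of *Penk* was −0.77, and −1.42 without the highest neuron of each type. Its ACP over ACV log2 fold was 0.01, but 1.37 with neurons of at most 900 *Apoe* counts and −2.17 with neurons of at most 100 CPM of the other-neuron markers, where ACP over laryngeal neurons gave −3.23. Exons of *Penk* overlap an antisense gene, and strand was not stated, so its reads could include some of that gene. *Pomc*, the precursor of melanocortins and beta-endorphin, had means of 5.63, 5.66 and 4.10 CPM, also within 2-fold.

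*Uts2b* and *Uts2* were highest in different types. *Uts2b* had a read in 44 of 53 ACP neurons (83%, interval 70.2 to 91.9), against 38 of 98 ACV neurons (38.8%, 29.1 to 49.2) and 12 of 52 laryngeal neurons (23.1%, 12.5 to 36.8). The ACP neurons ran from 0 to 609 CPM with a median of 64.1; the medians of ACV and laryngeal neurons were 0, with the highest at 239 and 103.5. The first quartile of the ACP neurons, 22.4 CPM, was above the third quartile of the ACV neurons, 10.99. Mean *Uts2b* was 93.8 CPM (SD 108.4), 15.1 (SD 39.8) and 8.96 (SD 23.2), a log2 fold of 2.56 for ACP over ACV and 3.25 for ACP over laryngeal neurons. The ACV over laryngeal log2 fold, 0.69, was within 2-fold.

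*Uts2* ran the other way. It had a read in 32 of 52 laryngeal neurons (61.5%, interval 47 to 74.7), 8 of 98 ACV neurons (8.16%, 3.59 to 15.5) and 5 of 53 ACP neurons (9.43%, 3.13 to 20.7). In laryngeal neurons it ran from 0 to 838 CPM with a median of 14.6, while the medians of both cardiac types were 0 and their highest neurons were at 121.6 (ACP) and 116.4 (ACV). Mean *Uts2* was 93.9 CPM over laryngeal neurons (SD 193.01), 3.81 over ACV neurons (SD 18.5) and 2.67 over ACP neurons (SD 16.8), log2 folds of −4.30 and −4.69. In ACP neurons, 1 neuron held 86% of the sum, and the ACP over laryngeal log2 fold without the highest neuron of each type was −5.86. With at least 10 reads, *Uts2b* without *Uts2* was found in 41 ACP, 26 ACV and 2 laryngeal neurons, and *Uts2* without *Uts2b* in 0 ACP, 2 ACV and 20 laryngeal neurons. Both were found together in 2 ACP, 3 ACV and 6 laryngeal neurons, so most neurons with the scarcer gene of a type also held the other. The receptor *Uts2r* had a read in 11.3% of ACP, 1.02% of ACV and 7.69% of laryngeal neurons, a low level in each.

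**Figure D2:**
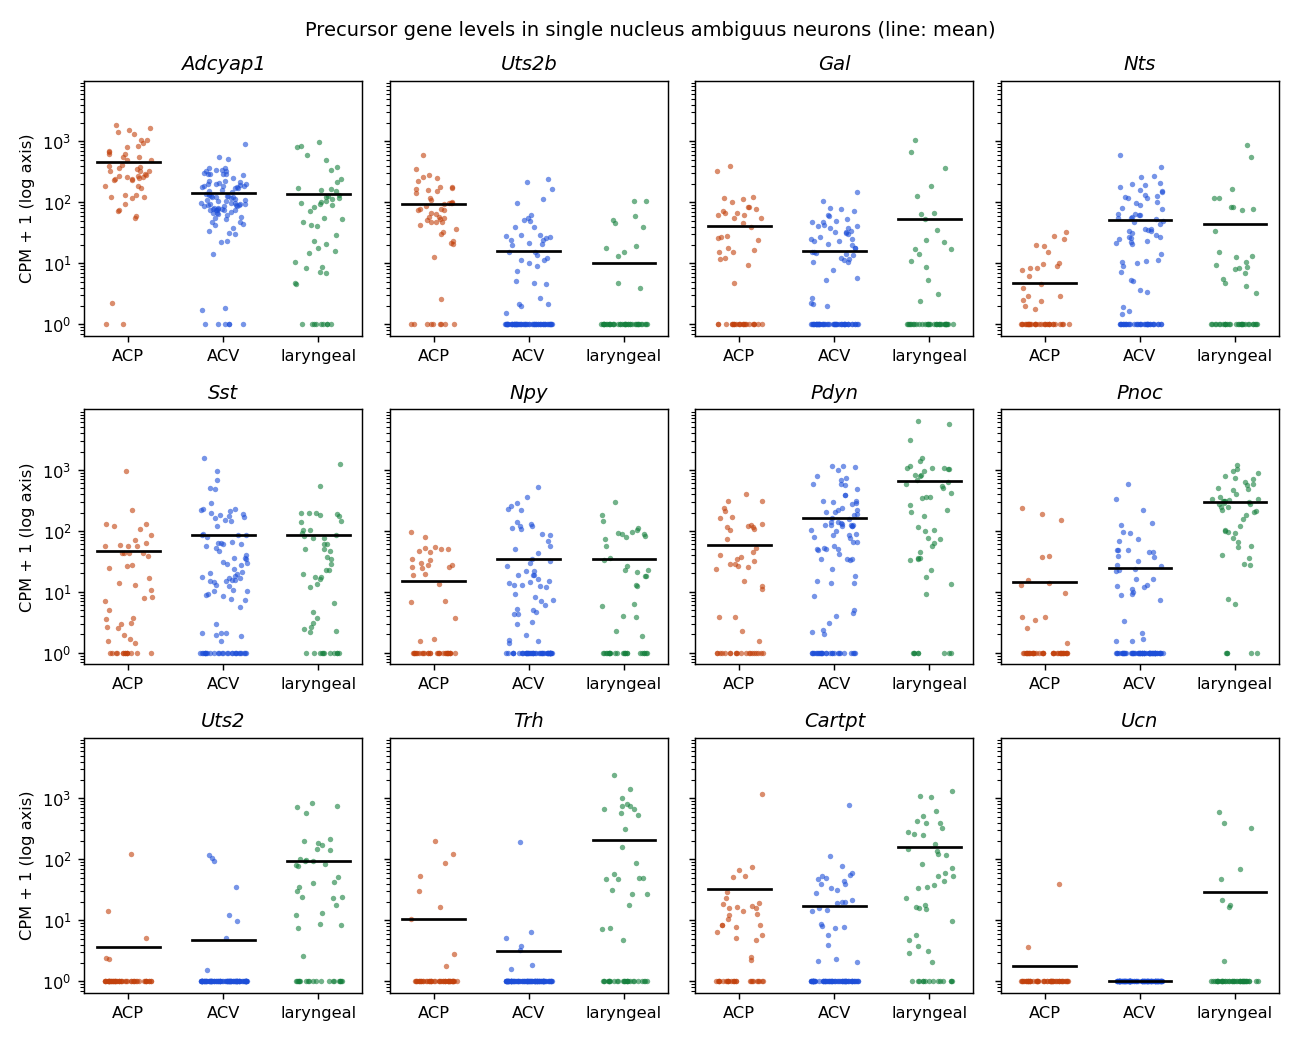
Levels of 12 precursor genes in single ACP, ACV and laryngeal neurons. Each point is 1 neuron, the vertical axis is CPM plus 1 on a log axis with 1 for no read, and the line is the mean; *Uts2b* sits high in ACP neurons (mean 93.8 CPM) and *Uts2*, *Pnoc* and *Trh* high in laryngeal neurons.

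*Trh*, on chromosome 6 from 92242061 to 92244650, encodes thyrotropin-releasing hormone, a peptide that also excites motor neurons. It had a read in 25 of 52 laryngeal neurons (48.1%, interval 34 to 62.4), 9 of 53 ACP neurons (17%, 8.07 to 29.8) and 7 of 98 ACV neurons (7.14%, 2.92 to 14.2). Laryngeal neurons were split, with a median of 0 and the highest at 2444 CPM; the highest of the ACP neurons was 196.97 and of the ACV neurons 188.1. Mean *Trh* was 202.7 CPM over laryngeal neurons (SD 449), 9.68 over ACP neurons (SD 33.97) and 2.08 over ACV neurons (SD 18.9996), and 1 ACV neuron held 92.2% of the ACV sum. The log2 fold was −4.25 for ACP and −6.05 for ACV over laryngeal neurons, the latter −7.10 without the highest neuron of each type. The ACP over ACV log2 fold, 1.79, was 2.6 without those neurons and 0.84 with neurons of at most 100 CPM of the other-neuron markers. Its receptor *Trhr* was highest in ACP neurons: a read was found in 75.5% of ACP, 38.5% of laryngeal and 13.3% of ACV neurons, and the ACP over ACV log2 fold was 4.77.

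*Cartpt*, on chromosome 13 from 99898489 to 99901091, encodes CART, a peptide linked to feeding and autonomic control. It was found in 73.1% of laryngeal neurons (interval 59 to 84.4), 50.9% of ACP neurons (36.8 to 64.9) and 30.6% of ACV neurons (21.7 to 40.7). The median was 27.9 CPM in laryngeal, 1.28 in ACP and 0 in ACV neurons. Means were 156.9 CPM (SD 289), 31.3 (SD 160.8) and 16.1 (SD 78.6), and 70.7% of the ACP sum came from 1 neuron at 1173 CPM. The log2 fold was −2.29 for ACP and −3.20 for ACV over laryngeal neurons, and −3.71 and −3.85 without the highest neuron of each type.

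*Ucn* encodes urocortin, a ligand of corticotropin-releasing hormone receptors. It had a read in 9 of 52 laryngeal neurons (17.3%, interval 8.23 to 30.3), 2 of 53 ACP neurons (3.77%) and 0 of 98 ACV neurons, which allows a share of up to 3.06% counting 3 neurons as the floor (exact upper bound 3.69%). Its log2 fold for ACP over laryngeal neurons was −4.06. The highest laryngeal neuron was at 588 CPM, and a small number of neurons carried the gene: the top neuron held 39.8% of the laryngeal sum. The ACV over laryngeal log2 fold of *Ucn* was −4.88, and −4.21 without the highest neuron of each type. No ACV read was found, so the value of this fold depends on the pseudocount. Over the 15 alternatives, the ACV over laryngeal log2 fold of *Ucn* ran from −8.16 to −1.94. Of its receptors, *Crhr2* had a read in 20.8% of ACP, 4.08% of ACV and 13.5% of laryngeal neurons and *Crhr1* in 18.9%, 16.3% and 36.5%.

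The most abundant precursor in ACP neurons was *Adcyap1*, on chromosome 17 from 93199017 to 93206537, which encodes PACAP. It had a read in 96.2% of ACP (interval 87 to 99.5), 93.9% of ACV (87.1 to 97.7) and 82.7% of laryngeal neurons (69.7 to 91.8), so the level differed more than the share. The median was 295 CPM in ACP, 101.02 in ACV and 53.2 in laryngeal neurons, and the highest neurons were at 1877, 915 and 963. The first quartile of the ACP neurons, 173.2 CPM, was near the third quartile of the ACV neurons, 187.1. *Adcyap1* averaged 461 CPM over the ACP neurons (SD 446), 141.999 over the ACV neurons (SD 135.06) and 138.01 over the laryngeal neurons (SD 223), log2 folds of 1.69 over ACV and 1.73 over laryngeal neurons; the latter was 0.99 with neurons of at most 100 CPM of the other-neuron markers. Its receptor *Adcyap1r1* had means of 134.5, 69.3 and 299 CPM in the same order, higher in laryngeal than in ACP (log2 fold −1.15) or ACV neurons (−2.09).

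*Gal*, the galanin precursor, had a mean of 40.3 CPM over ACP neurons (SD 73.9), 15.1 over ACV neurons (SD 25.3) and 52.4 over laryngeal neurons (SD 177.7). The shares ran the other way from the laryngeal mean: a read was found in 56.6% of ACP, 48% of ACV and 36.5% of laryngeal neurons, and 38.9% of the laryngeal sum came from 1 neuron at 1059 CPM. The log2 fold was 1.36 for ACP over ACV and −1.73 for ACV over laryngeal neurons. *Vip*, the precursor of vasoactive intestinal peptide, was found in 28.3% of ACP (interval 16.8 to 42.3), 6.12% of ACV (2.28 to 12.9) and 21.2% of laryngeal neurons (11.1 to 34.7), with means of 12.9, 2.39 and 11.8 CPM. Its log2 fold was 2.03 for ACP over ACV and −1.92 for ACV over laryngeal neurons, so *Vip* was lowest in ACV neurons. *Nppc*, the precursor of C-type natriuretic peptide, was also lowest there, at 2.12 CPM against 4.65 in ACP and 15.4 in laryngeal neurons, log2 folds of −1.54 for ACP and −2.40 for ACV over laryngeal neurons. *Nppa*, the atrial natriuretic peptide precursor, had means of 1.18, 3.11 and 5.70 CPM in ACP, ACV and laryngeal neurons, with a log2 fold of −1.62 for ACP over laryngeal neurons (−0.89 with *Rn45s* in the totals). For ACV over laryngeal neurons it was −0.71, and −1.12 without the highest neuron of each type. In ACV neurons 1 neuron held 62.1% of the *Nppa* sum. Exons of *Nppa* overlap an antisense gene, and strand was not stated, so its reads could include some of that gene.

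*Nts*, the neurotensin precursor, had the lowest ACP over ACV log2 fold of the 21 precursors compared. It lies on chromosome 10 from 102481756 to 102490486 and had a read in 62.2% of ACV (interval 51.9 to 71.8), 44.2% of laryngeal (30.5 to 58.7) and 39.6% of ACP neurons (26.5 to 54). The highest ACP neuron was at 31.9 CPM, while the ACV neurons reached 603 with a median of 9.99 and the laryngeal neurons reached 868 with a median of 0. Mean *Nts* was 3.84 CPM (SD 7.52) over ACP neurons, 49.9 (SD 89.6) over ACV neurons and 43.9 (SD 143.5) over laryngeal neurons, log2 folds of −3.40 and −3.21; 38% of the laryngeal sum came from 1 neuron. *Avp*, the vasopressin precursor, was low everywhere, with means of 1.65, 8.47 and 1.88 CPM, and had a read in 22.4% of ACV, 13.2% of ACP and 9.62% of laryngeal neurons. Its log2 fold was −1.84 for ACP over ACV and 1.72 for ACV over laryngeal neurons, the latter 0.78 and 0.08 with neurons of at most 1800 and 900 *Apoe* counts. *Grp*, which encodes gastrin-releasing peptide, was higher in both cardiac types, with means of 21.8, 12.02 and 3.28 CPM and log2 folds of 2.41 and 1.60 over laryngeal neurons; the ACV value was −0.54 with neurons of at most 900 *Apoe* counts. *Nmb*, which encodes neuromedin B, had means of 9.30, 7.96 and 15.6 CPM, within 2-fold in each comparison, and shares exon bases with *Sec11a*. In ACV neurons 1 neuron at 493 CPM held 63.2% of the *Nmb* sum: without the highest neuron of each type the ACV over laryngeal log2 fold went from −0.89 to −1.39, and with neurons of at most 1800 *Apoe* counts it was −2.51 and the ACP over ACV log2 fold 1.79. *Tac2*, the neurokinin B precursor, had means of 0.13, 0.74 and 2.11 CPM, with a log2 fold of −1.46 for ACP over laryngeal neurons, and had a read in at most 11.5% of the neurons of a type.

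**Figure D3:**
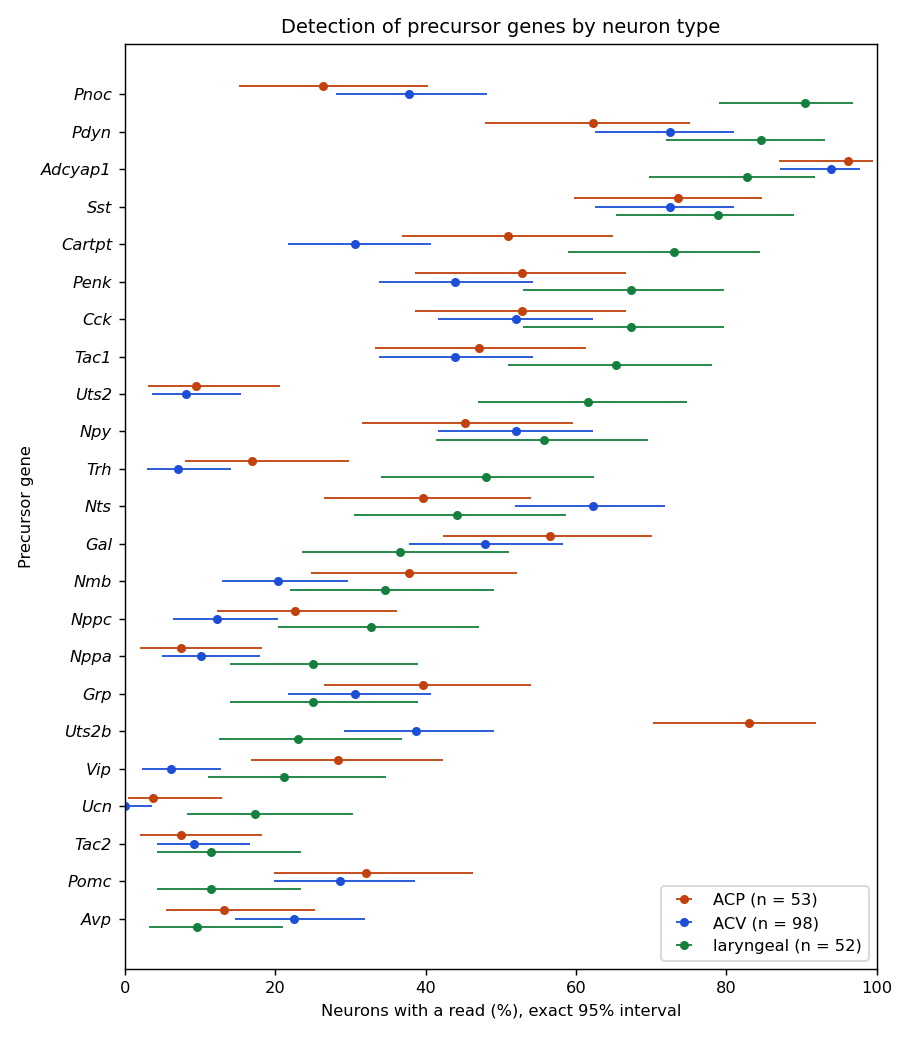
Share of neurons with a read of each of 23 precursor genes (horizontal axis, percent) in ACP, ACV and laryngeal neurons, with exact 95% intervals as bars. The bars cover counting error over neurons and are no test between types; *Uts2b* was highest in ACP neurons (83% against 38.8% and 23.1%), and *Pnoc*, *Uts2* and *Trh* in laryngeal neurons (90.4%, 61.5% and 48.1%).

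*Sst*, *Npy*, *Cck*, *Penk* and *Tac1*, precursors that are common in local interneurons, were found in all 3 types. *Sst*, the somatostatin precursor, had a read in 73.6% of ACP, 72.4% of ACV and 78.8% of laryngeal neurons, with means of 46.4 CPM (SD 133.8), 84.9 (SD 209) and 83.1 (SD 186.9), within 2-fold in each comparison. In ACP neurons 38.6% of the *Sst* sum came from 1 neuron. Without the highest neuron of each type the log2 fold was −1.23 for ACP over ACV and −1.04 for ACP over laryngeal neurons. With neurons of at most 100 CPM of the other-neuron markers these folds were −2.14 and −2.77. In the laryngeal neurons under that limit the *Sst* median was 1.31 CPM, so the value of −2.77 rested on few neurons. *Npy*, the neuropeptide Y precursor, had means of 14.2 CPM (SD 22.4), 34.1 (SD 81.9) and 32.98 (SD 57.2), log2 folds of −1.21 for ACP over ACV and −1.16 for ACP over laryngeal neurons. The ACP over ACV value was −0.07 with neurons of at most 900 *Apoe* counts, and the ACP over laryngeal value was 0.053 with neurons of at most 100 CPM of the other-neuron markers. *Cck*, the cholecystokinin precursor, had means of 15.98, 31.2 and 53.98 CPM, with a log2 fold of −1.69 for ACP over laryngeal neurons and −0.92 for ACP over ACV neurons (−1.28 without the highest neuron of each type), and *Tac1*, the source of substance P, had 17.4, 88.8 and 32.4. The *Tac1* mean in ACV neurons rested on few cells: 41% of the sum came from 1 neuron at 3568 CPM, and the ACV median was 0. The ACP over ACV log2 fold of *Tac1* was −2.29, and −0.78 when neurons with over 100 CPM of the other-neuron markers were left out. Its ACV over laryngeal log2 fold was 1.43, but the shares ran the other way. A read of *Tac1* was found in 43.9% of ACV, 65.4% of laryngeal and 47.2% of ACP neurons.

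Across neurons, the levels of these 5 precursors moved with those markers. The Spearman rho (Pearson r on log values) in ACP neurons was 0.68 (0.60) for *Penk*, 0.62 (0.54) for *Cck*, 0.60 (0.56) for *Sst*, 0.55 (0.49) for *Tac1* and 0.48 (0.49) for *Npy*, over 53 neurons. In laryngeal neurons, n = 52, it was between 0.41 and 0.54 for the same genes, and in ACV neurons, n = 98, between 0.18 and 0.27. With summed astrocyte markers the rho in ACV neurons was as high or higher for 4 of the 5 (*Sst* 0.38, *Cck* 0.26, *Penk* 0.25 and *Npy* 0.24, against 0.13 for *Tac1*), while in ACP neurons it was 0.10 to 0.33 and in laryngeal neurons 0.00 to 0.26. With the other-neuron markers, *Adcyap1*, *Uts2b* and *Gal* gave values of −0.36 to 0.01 in all 3 types, and *Pdyn* −0.06 to 0.02. In laryngeal neurons *Pnoc* gave −0.21, *Uts2* −0.20, *Trh* −0.03 and *Cartpt* −0.08. The same 4 genes, in that order, gave 0.26, 0.16, 0.25 and 0.01 in ACP neurons. In ACV neurons they gave 0.11, 0.08, 0.05 and 0.13. With the astrocyte markers *Pnoc* gave 0.09, 0.30 and −0.05 in ACP, ACV and laryngeal neurons. Both values of a neuron share its library and depth, and these are descriptions with no test. In the 32 ACP neurons with at most 100 CPM of the markers, mean *Sst* was 11.3 CPM and mean *Uts2b* 93.3. In the 17 such laryngeal neurons, mean *Pnoc* was 434, mean *Uts2* 164.6 and mean *Npy* 5.54. Mean *Sst*, at 83.4, was close to its value over all laryngeal neurons but rested on few of the 17. Their *Sst* median was 1.31 CPM, and 17.6% of them had at least 10 reads. A read of *Sst* was found in 52.9% of them, against 78.8% of all laryngeal neurons. Mean *Pdyn* in them was 348, against 652 over all laryngeal neurons. With neurons under that limit, the *Pdyn* log2 fold over laryngeal neurons was −1.04 for ACV and −2.35 for ACP neurons, against −2.03 and −3.46. In the 68 such ACV neurons mean *Npy*, at 35.4, was close to its value over all ACV neurons and mean *Tac1* was 13.8. The part of other cells in the levels of *Sst*, *Npy*, *Cck*, *Penk* and *Tac1* was not tested.

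**Figure D4:**
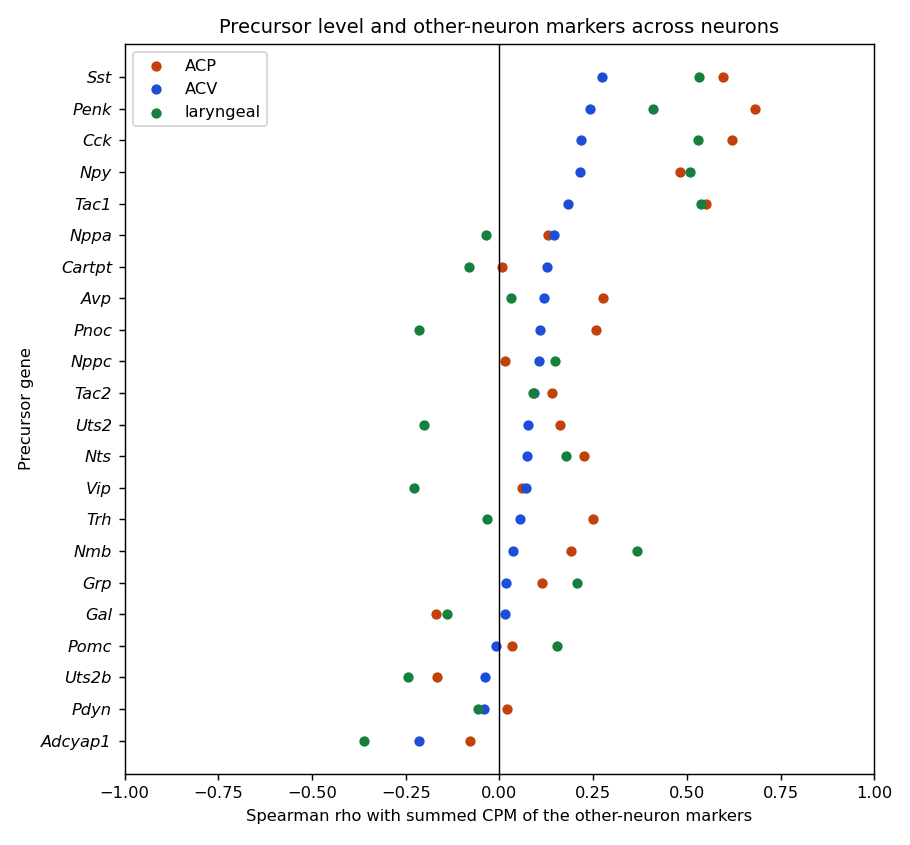
Spearman rho, across the neurons of a type, between the level of each precursor gene and the summed CPM of 10 markers of other neurons. *Penk*, *Cck*, *Sst*, *Tac1* and *Npy* lie to the right in each type and *Adcyap1* and *Uts2b* lie at or left of 0.

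Ordered by mean CPM per kilobase of exon, which allows genes to be compared, the leading precursors differed between types. ACP neurons were led by *Adcyap1* (122.1), *Uts2b* (112.3), *Sst* (64.4) and *Gal* (51.1). ACV neurons were led by *Sst* (117.8), *Npy* (60.3), *Pdyn* (55.2), *Nts* (40.02) and *Adcyap1* (37.6). Laryngeal neurons were led by *Pdyn* (226), *Uts2* (174.6), *Trh* (146.5), *Pnoc* (139.8) and *Cartpt* (122.9), close to *Sst* (115.3). These orders are a description of the means and turn with the measure: by the median per kilobase, ACV neurons were led by *Adcyap1* (26.7), ahead of *Sst* (20.2) with *Npy* at 1.03, and laryngeal neurons by *Pnoc* (113.2), ahead of *Pdyn* (73.1) with *Trh* at 0. In ACP neurons *Adcyap1* (78.2) and *Uts2b* (76.8) led by the median too.

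The first-ranked gene of each neuron, on the same scale, varied within a type. In ACP neurons it was *Uts2b* in 17 of 53 (32.1%, interval 19.9 to 46.3) and *Adcyap1* in 15 (28.3%). In ACV neurons, 16 different precursors led at least 1 neuron, with *Sst* in 20 of 98, *Pdyn* in 14, *Adcyap1* in 13, *Nts* in 11 and *Npy* in 10. In laryngeal neurons *Pdyn* led in 14 of 52 (26.9%, 15.6 to 41), *Sst* in 7 and *Uts2* in 5. The leading precursor held a median of 39.5%, 39.9% and 37% of the summed level per kilobase in ACP, ACV and laryngeal neurons.

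Reads of several precursors were found in most neurons. The number with a read per neuron ran from 2 to 20 with a median of 9 in ACP, 3 to 23 with a median of 8 in ACV and 2 to 20 with a median of 11 in laryngeal neurons, although the laryngeal libraries were the shallowest. Thinned to 200000 counts, the medians were 7.45, 6.99 and 10.3, with 3 shallower laryngeal neurons left out. With at least 10 reads as the limit they were 7, 6 and 7.5. The summed precursor level had medians of 703, 481 and 1650 CPM. The summed other-neuron markers were also highest in laryngeal neurons, with medians of 72.8, 63.9 and 265 CPM in the same order. The part of other cells in these counts and sums was not tested.

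Combinations were tallied with a minimum of 10 reads. In laryngeal neurons *Pnoc* and *Pdyn* were found together in 38 of 52, *Pnoc* and *Cartpt* in 26 and *Pnoc* and *Uts2* in 25; *Pdyn* was found in 86.4% of the neurons with *Pnoc* and in 25% of the 8 without it. Spearman rho (Pearson r) was 0.51 (0.58) for *Pnoc* and *Pdyn*, 0.61 (0.52) for *Pnoc* and *Uts2* and 0.61 (0.59) for *Pnoc* and *Cartpt*. *Pdyn* and *Trh* went the other way, at −0.37 (−0.36): *Trh* was found in 35% of the neurons with *Pdyn* and 58.3% of those without. The neurons with *Pdyn* were deeper, with a median of 617203 counts against 396632. Those with *Pnoc* had a median of 576086.5 counts and 7827 genes with a read, against 552649 and 6174 in the 8 without it. The part of depth and of library quality in these pairs was not tested. All 5 of *Pnoc*, *Pdyn*, *Uts2*, *Trh* and *Cartpt* were found in 9 of 52 laryngeal neurons, 1 of 53 ACP neurons and 0 of 98 ACV neurons, which allows a share of up to 3.06% by the same floor (exact upper bound 3.69%). These 5 genes were higher in laryngeal neurons in these same counts, so this order of types followed from the choice of genes. In ACP neurons *Adcyap1* and *Uts2b* were found together in 41 of 53, with a rho of 0.63 (r 0.40). Both genes were frequent, *Adcyap1* in 50 of the 53 and *Uts2b* in 43, so many neurons with both follow from these counts. *Uts2b* was found in 82% of the neurons with *Adcyap1* and in 66.7% of those without. The group without *Adcyap1* held only 2 neurons with *Uts2b* and 1 with neither. The ACP neurons with *Adcyap1* had a median of 1121562 counts against 782900 in those without, and the part of depth was not tested. In ACV neurons *Sst* and *Npy* gave 0.60 (0.59) and *Nts* and *Pdyn* 0.29 (0.28).

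**Figure D5:**
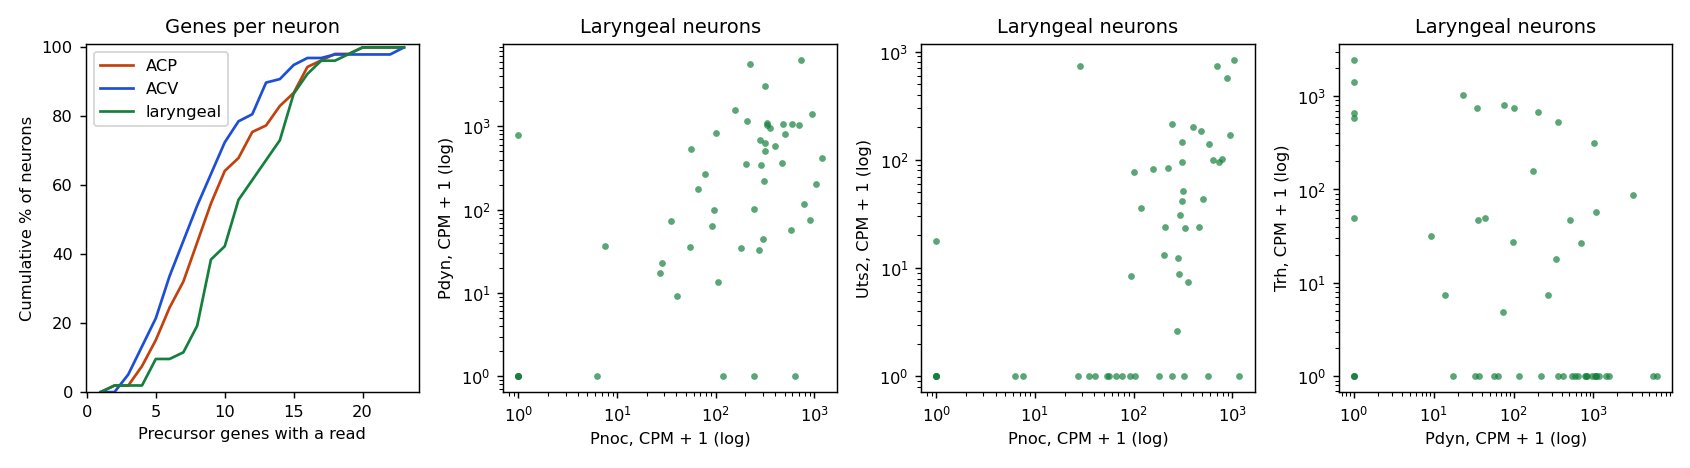
Left, the cumulative percent of neurons by the number of precursor genes with a read, for ACP, ACV and laryngeal neurons (medians 9, 8 and 11). Right, levels of gene pairs in the 52 laryngeal neurons on log axes of CPM plus 1: *Pnoc* and *Pdyn* rise together (rho 0.51), as do *Pnoc* and *Uts2* (0.61). *Pdyn* and *Trh* gave a rho of −0.37, but 14 of the 21 neurons with at least 10 reads of *Trh* had at least 10 of *Pdyn* too.

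Genes that process and store peptides were compared in the same way. Of 15 such genes, 4 were past 2-fold higher in ACP than ACV neurons and 0 lower (background 7.55% and 6.31%): *Pcsk1*, a convertase (83.97 against 34.6 CPM), *Chgb*, a granin (522 against 233), *Vgf*, a granin-like protein (69.2 against 11.7), and *Cadps2*, a vesicle-priming factor (20.1 against 6.95). Against laryngeal neurons, 4 were higher in ACP (*Pcsk1*, *Qpct*, *Chgb* and *Scg2*; background 8.09%) and 1 in ACV (*Scg2*; 7.87%), while *Chga* and *Vgf* were higher in laryngeal than ACV neurons (11.8%). *Pcsk1* had a read in 81.1% of ACP, 55.1% of ACV and 28.8% of laryngeal neurons, against 92.5%, 87.8% and 73.1% for the convertase *Pcsk2*. *Cpe*, the carboxypeptidase that trims peptides, was at 1244, 1070 and 1300 CPM. Of 58 receptors for these peptides, 12 of the 37 compared were higher in ACP than ACV neurons and 6 lower (background 7.55% and 6.31%). Of the 44 compared between ACP and laryngeal neurons, 8 were higher in ACP and 10 in laryngeal neurons (8.09% and 10.1%); of the 41 compared between ACV and laryngeal neurons, 8 were higher in ACV and 18 in laryngeal neurons (7.87% and 11.8%). *Oprl1*, the nociceptin receptor, was found in 92.5% of ACP, 85.7% of ACV and 84.6% of laryngeal neurons, at means of 208, 163.6 and 151.5 CPM. *Sstr2*, a somatostatin receptor, was at 52.8 CPM in ACV against 4.81 in ACP and 4.35 in laryngeal neurons.

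The 17 rare precursors were *Adm*, *Agrp*, *Cort*, *Crh*, *Ghrh*, *Gnrh1*, *Hcrt*, *Iapp*, *Nms*, *Nmu*, *Nppb*, *Npw*, *Oxt*, *Pmch*, *Prok2*, *Pthlh* and *Rln3*. Each had a read in at most 6 ACP, 8 ACV and 4 laryngeal neurons. The highest level of any of them in a neuron was 35.8 CPM in ACP, 325 in ACV and 182.8 in laryngeal neurons, and their mean levels were at most 1.003, 5.90 and 4.35 CPM. Exons of *Agrp*, *Nmu* and *Pmch* overlap exons of other genes, so single reads there are uncertain. *Calca*, a CGRP and calcitonin gene outside the set, gives a scale for these levels: its mean was 52.8 CPM in ACP, 22.8 in ACV and 2095 in laryngeal neurons.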

How the data were processed

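Single-neuron Smart-seq2 libraries, paired-end, were aligned by the authors with STAR 2.6.1d to mm10, and the deposited raw counts are whole reads per gene for each neuron. The counting program, annotation and use of strand are not given in the sources used here. The deposited table labelled CPM was not used, since its columns do not sum to 1000000. The authors' deposited cluster names gave the types, and no deposited neuron was left out. Levels are counts per 1000000 reads outside *Rn45s*, folds use a pseudocount of 1, and per-kilobase values use GENCODE vM21 exon lengths; promoters come from the RefSeq table of GRCm38.p6. Shares have exact Clopper-Pearson intervals. The members and all gene lists were chosen with earlier results of these data known. Genes are described one by one where a type had a read in at least 25% of its neurons, or where a fold passed 2 with a read in at least 10% of either type; the rest are given by counts. Alternatives were other scalings (edgeR 4.0.16 TMM, DESeq2 1.42.0 size factors), pseudocounts, limits and subsets of neurons; 2 of them, at most 1800 *Apoe* counts and at most 100 CPM of the other-neuron markers, were chosen after seeing the data. The fold calculation was tested on simulated data with known folds. These were set only in genes of higher mean level, so the folds of low-level genes were not covered. Python 3.11.15, pandas 2.3.3 and scipy 1.17.1 were used.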

Additional observations from a re-analysis of the deposited data

How the results depend on the processing

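Of 37 precursor folds past 2-fold over the 3 comparisons, 35 kept their direction in all 15 alternatives. In fold value, 22 stayed past 2-fold in each except the stricter 4-fold limit. The other minimum shares and the 4-fold limit left fold values unchanged, and another pseudocount cannot reverse a direction, so these could not change the 35. The 22 also counts folds of genes not compared at a minimum share of 25%. At that share 8 (ACP and ACV), 13 (ACP and laryngeal) and 9 (ACV and laryngeal) precursors were past 2-fold. The exceptions in direction were *Grp* in ACV over laryngeal neurons (log2 fold −0.54 with at most 900 *Apoe* counts) and *Npy* in ACP over laryngeal neurons (0.053 with at most 100 CPM of the other-neuron markers); the causes were not tested. The number of precursors past the limit moved to 6 between ACP and ACV neurons with a pseudocount of 10, and at 4-fold to 4 (ACP and ACV), 9 (ACP and laryngeal) and 7 (ACV and laryngeal). For all genes, in the same order, a pseudocount of 10 gave 457, 669 and 798, and 4-fold gave 360, 453 and 503. Between ACP and ACV neurons a minimum share of 25% gave 1115 genes, since fewer were compared, and at most 900 *Apoe* counts gave 2870 with 26 ACP and 44 ACV neurons. At most 100 CPM of the other-neuron markers gave 3993 (ACP and laryngeal) and 4328 (ACV and laryngeal), with 17 laryngeal neurons left. No paired analysis was possible because the labels give no number or animal shared between types, and no test was run. Depth limits the low levels: genes with few reads in the laryngeal neurons, the shallowest, may be present in more of them.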
